A study of Mus musculus with 6 samples.

Results

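The genes described here carry fatty acids through oxidation in the liver. They cover the carnitine shuttle, mitochondrial and peroxisomal beta-oxidation, the electron transfer flavoproteins, acyl-CoA thioesterases, omega-hydroxylation by the Cyp4a enzymes, ketone body enzymes, and the nuclear receptor PPARα with 3 of its marker targets. A list of 38 genes with these functions was chosen with earlier results of these data known. Shares of the list set beside those of all genes are therefore descriptions and not tests. A gene was measured if the array annotation gave it a probe set with a single gene symbol, and its probe set with the highest mean over the 6 arrays stood for it. In this way 36 of the 38 genes were measured, among 18193 genes in all. Cyp4a10, whose 1 probe set also names a second Cyp4a gene, and Acsl1 were not analysed here.

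Livers came from male mice of strain C57BL/6 at 6 weeks of age, and each mouse was measured on its own Affymetrix expression array. The first group, KO, had 3 mice with a conditional knockout of p14 in the liver, and the second, WT, had 3 control mice labelled as wild type for p14. p14 is the product of Lamtor2 and part of Ragulator, the scaffold that brings the kinase mTORC1 to lysosomes. The driver of the deletion, the feeding state and whether the controls carried unrecombined alleles are not given in the sources used here. Replicates are separate animals per the labels. All values are deposited log2 expression levels, and all differences are KO minus WT on that scale. In whole liver, fewer cells of a type and less RNA per cell cannot be told apart.

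In hepatocytes, long-chain fatty acids are activated to acyl-CoA and enter mitochondria as carnitine esters. Repeated rounds of beta-oxidation then shorten them, the acyl-CoA dehydrogenases pass electrons to the electron transfer flavoprotein, and the acetyl-CoA formed can leave the liver as ketone bodies. Peroxisomes shorten very long, branched and dicarboxylic chains, and Cyp4a enzymes start omega-oxidation. PPARα switches many of these genes on during fasting, and in mouse liver active mTORC1 is known to restrain PPARα and ketone production.

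Lamtor2 measured 10.08, 10.19 and 10.11 on the KO arrays, against 11.32, 11.29 and 11.35 on the WT arrays, a difference of -1.19 (limma, Benjamini-Hochberg adjusted p = 0.0104). The call was lost without KO 2, WT 1, WT 2 or WT 3 and with the mouse number as a replicate block (limma, adjusted p = 0.0505 to 0.116), while the size stayed between -1.23 and -1.17. Hepatocyte markers other than Ass1 were bright on every array, and the list means with Ass1 were 14.74 to 14.95 in KO and 14.68 to 14.84 in WT. Ass1 measured 7.31, 9.27 and 8.83 in KO and 8.21, 7.88 and 6.82 in WT on the probe set used. The 10 macrophage markers were lower in KO, with list means of 8.43 to 9.77 against 10.13 to 10.21 in WT, and 7 of 9 endothelial markers were lower, with list means of 8.70 to 9.20 in KO and 9.33 to 9.47 in WT. Of 7 stellate cell markers 6 were lower, with list means of 8.99 to 9.25 in KO and 9.26, 10.29 and 9.42 on WT 1, WT 2 and WT 3. The lower ones include Des, which lay at 3.46 on every array but WT 2, where it measured 7.53, and which did not enter the test. WT 2 stood apart. The mean of 12 skeletal muscle markers was 11.52 on that array, against 2.40 to 2.42 on the KO arrays and 2.37 and 2.55 on the other WT arrays. Of the KO arrays, KO 3 lay nearest to WT in the macrophage markers, in Saa1 and in 18S rRNA. The acute-phase transcript Saa1 measured 15.83, 15.78 and 12.22 on KO 1, KO 2 and KO 3, against 10.83 to 12.03 on the WT arrays, and the 18S rRNA control probes measured 9.24, 9.11 and 8.50 in KO, against 7.77 to 8.44 in WT. The 3′ minus 5′ level of the pyruvate carboxylase control probes, a sign of RNA quality, was 3.58, 3.51 and 3.54 in KO, against 4.65, 3.99 and 4.85 in WT, so that these groups were separate and KO 3 was like the other KO arrays. The part of macrophage, endothelial and stellate cell RNA, muscle RNA, acute-phase state and RNA quality in the differences below was not tested. A value without WT 2 or KO 3 shows only how far a difference rests on that array, and does not separate these parts.

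Promoter sequences are shown for 3 of the genes. Etfbkmt and Decr2 had the highest differences among the genes that were bright in both groups, and Fabp1 was the only one, of 28 measured genes with a promoter window, that held the motif that PPARα binds as a dimer with RXR, which is a direct repeat of a half-site with a single base between. The motif was searched as AGGNCANAGGNCA on both strands, and the half-site alone as AGGTCA on both strands. The second search can also hit within the first. The sequences are RefSeq's, from build GRCm38.p6, and run from 250 bases before to 50 bases after the start of the gene. They lie at chr6:149141263-149141562 on the plus strand for Etfbkmt, chr17:26090115-26090414 on the minus strand for Decr2, and chr6:71199629-71199928 on the plus strand for Fabp1. Capitals mark the matches.
Etfbkmt promoter: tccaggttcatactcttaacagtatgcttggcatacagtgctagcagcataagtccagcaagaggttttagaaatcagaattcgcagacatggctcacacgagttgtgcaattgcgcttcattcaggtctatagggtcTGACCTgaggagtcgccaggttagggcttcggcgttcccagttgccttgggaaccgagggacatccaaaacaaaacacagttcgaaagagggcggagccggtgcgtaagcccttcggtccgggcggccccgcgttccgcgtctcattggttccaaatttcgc
Decr2 promoter: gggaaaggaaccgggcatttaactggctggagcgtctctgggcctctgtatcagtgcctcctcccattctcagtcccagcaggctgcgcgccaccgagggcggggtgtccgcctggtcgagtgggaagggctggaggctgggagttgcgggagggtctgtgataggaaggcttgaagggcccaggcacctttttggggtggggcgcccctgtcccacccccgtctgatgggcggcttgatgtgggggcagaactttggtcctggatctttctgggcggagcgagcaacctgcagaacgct
Fabp1 promoter: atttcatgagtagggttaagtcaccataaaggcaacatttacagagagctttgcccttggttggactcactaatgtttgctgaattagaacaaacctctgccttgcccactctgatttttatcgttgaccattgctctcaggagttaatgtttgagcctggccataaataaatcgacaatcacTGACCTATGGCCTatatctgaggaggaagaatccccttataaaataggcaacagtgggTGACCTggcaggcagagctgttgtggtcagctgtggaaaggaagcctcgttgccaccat
The Fabp1 promoter held the direct repeat 67 bases before the gene start, read on this strand as TGACCTATGGCCT, and a further half-site 9 bases before the start. The Etfbkmt promoter held 1 half-site, 112 bases before the start, and the Decr2 promoter held no match to these letters in this window. The direct repeat was in 0.381% of all 32851 windows and in 1 of the 30 windows found for 28 of the measured genes. The half-site was in 16.3% of all windows and in 8 of those 30, which belonged to Acadm, Acadvl, Acot3, Acot4, Cpt1a, Etfbkmt and Fabp1. A match is a run of letters and does not show binding.

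None of the oxidation genes passed the test across all genes. The count was 0 of 36 at an adjusted p under 0.05 in limma, where 0.17% of the 10009 genes tested were called, 0.02% higher and 0.15% lower. At an unadjusted p under 0.05 there were 3 of 36, against 14.5% of all genes. All 3 were higher in KO, where the share of all genes was 4.32% higher and 10.1% lower. These were Etfbkmt, Decr2 and Cyp4a12a. The last entered the test only through its KO arrays, so it could only be counted as higher. KO and WT arrays did not overlap for 7 of the 36, or 19.4%, against 20.5% of all genes. Of these 7, 5 were higher, Cyp4a12a among them, where 6.54% of all genes were, and 2 were lower, where 14% of all genes were.

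Most of the 36 genes had close means in the groups. The difference was at most 0.25 in size for 28 of them, or 77.8%, against 74.1% of all genes. It was at least 0.5 for 5, or 13.9%, against 9.11% of all genes. The median difference was -0.02, beside -0.04 over all genes tested, and 14 genes were higher and 22 lower. For 29 of the 36, or 80.6%, the 95% interval of the difference stayed within 2-fold either way, against 89.0% of all genes. The interval is not corrected for the number of genes. The other 7 of the 36 were Etfbkmt, Decr2, Cyp4a12a, Acot3, Acot4, Pdk4 and Vnn1. Of the 36, 35 reached a log2 value of 4 on all 6 arrays. Cyp4a12a reached it on the KO arrays alone and so entered the test only through the group in which it was high, which bears on the counts above. Fabp1 lay between 16.00 and 16.14 on every array, near the highest value in the table, 16.327.

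**Figure D1:**
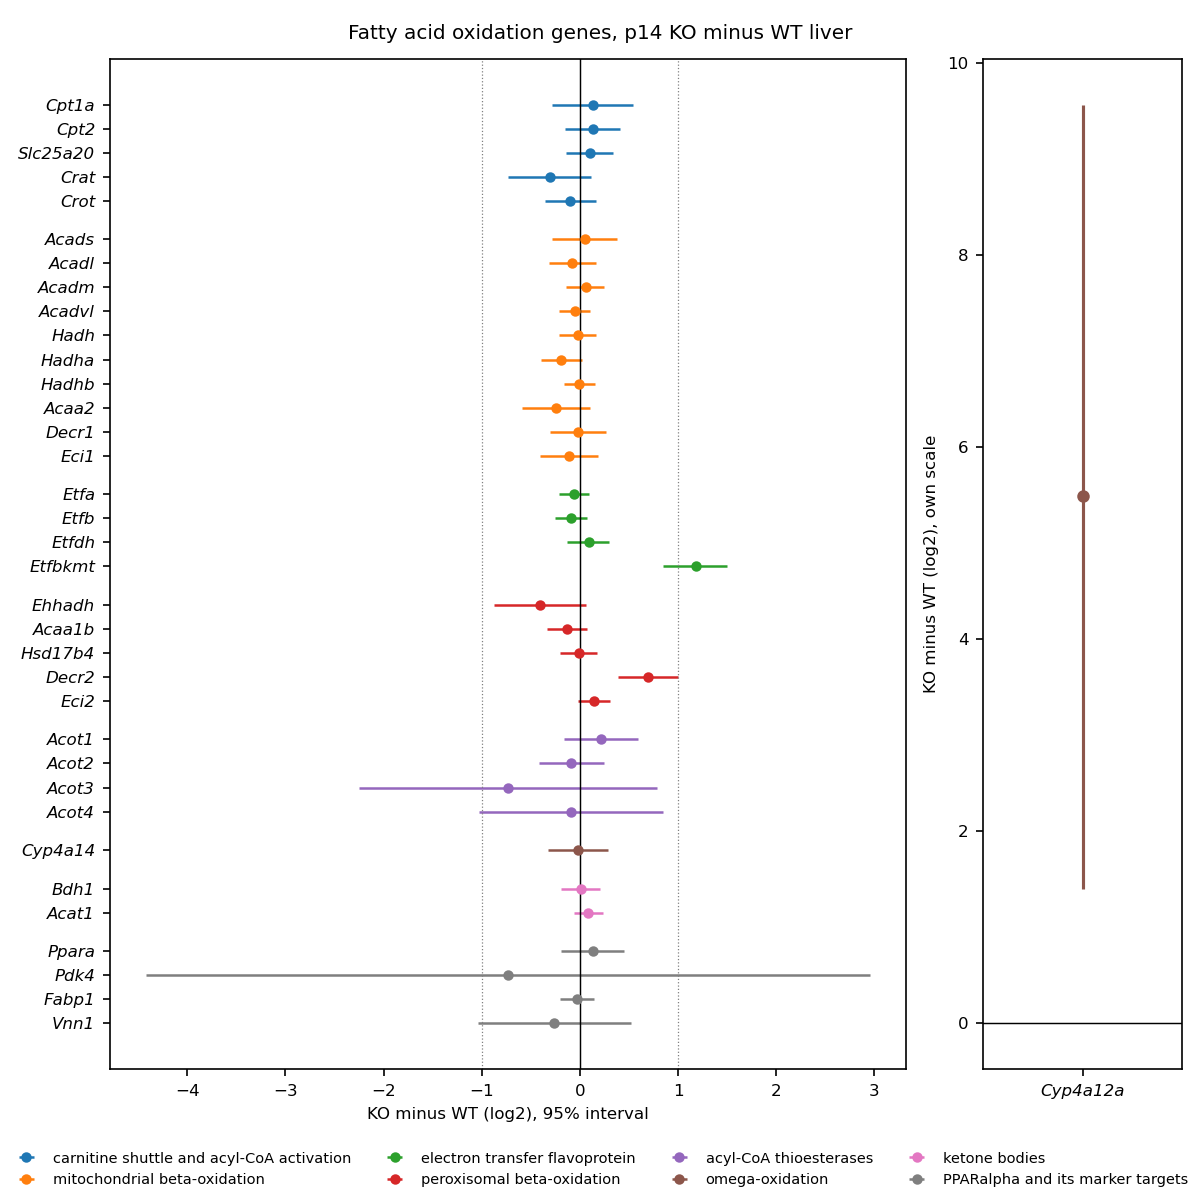
Difference between KO and WT livers (x axis, log2, points) with its 95% interval (bars) for 35 genes, coloured by role, and at right for Cyp4a12a on a scale of its own (y axis, log2). Dotted lines mark a 2-fold difference, and Etfbkmt at 1.18 is the only point of the left panel beyond it.

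The carnitine shuttle showed small differences. Cpt1a encodes the outer membrane transferase that commits fatty acids to mitochondrial oxidation. It measured 13.45, 13.55 and 12.99 on the KO arrays and 13.31, 13.21 and 13.07 on the WT arrays, a difference of 0.13 with an interval of -0.28 to 0.54 (limma, adjusted p = 0.717). On this probe set KO 1 and KO 2 were above every WT array and KO 3 was below them all. Further probe sets of Cpt1a differed by 0.27 and 0.34, also with overlapping groups. On these KO 3 lay above WT 3, at 11.17 against 10.79 and at 9.37 against 8.88. Cpt2, the inner membrane transferase, measured 12.78, 12.89 and 12.49 in KO and 12.60, 12.58 and 12.59 in WT. Slc25a20, the carnitine-acylcarnitine carrier, measured 12.70, 12.66 and 12.40 in KO and 12.50, 12.43 and 12.52 in WT. The order was the same for both genes, with KO 1 and KO 2 above the WT arrays and KO 3 below. Crat, which handles short acyl groups, measured 8.29, 8.36 and 7.98 in KO and 8.78, 8.53 and 8.26 in WT, a difference of -0.31 with an interval of -0.73 to 0.11 (limma, adjusted p = 0.425). It was -0.20 without KO 3 and -0.18 without WT 1. Crot, the peroxisomal octanoyltransferase, was at -0.10. Of the 5 genes 3 were higher and 2 lower, and 0 were called.

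Enzymes of the mitochondrial spiral differed little. Over its 10 genes the differences ran from -0.24 to 0.06, with 2 higher, 8 lower and 0 called. The dehydrogenases for short, medium, long and very long chains, Acads, Acadm, Acadl and Acadvl, were at 0.05, 0.06, -0.08 and -0.05. Acadm measured 14.12, 14.11 and 14.10 in KO and 14.07, 14.16 and 13.92 in WT, and its interval ran from -0.14 to 0.25. Hadha, the alpha subunit of the trifunctional protein, measured 12.54, 12.54 and 12.57 in KO and 12.75, 12.59 and 12.87 in WT. Its groups did not overlap, although KO 3 and WT 2 lay close to each other, and the difference of -0.19 did not pass (limma, adjusted p = 0.374). Hadhb, the beta subunit of the same complex, was at -0.01. Acaa2, the mitochondrial thiolase, measured 14.06, 14.54 and 14.44 in KO and 14.61, 14.50 and 14.65 in WT, with KO 1 lowest and the groups overlapping. Its difference was -0.24 on this probe set (limma, adjusted p = 0.443) and 0.14 and -0.05 on its further ones, and it was -0.10 without KO 1. Hadh, Decr1, which reduces dienoyl-CoA from unsaturated chains, and Eci1, an enoyl-CoA isomerase, were at -0.02, -0.02 and -0.11.

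The electron transfer flavoprotein and its oxidoreductase take up the electrons of these dehydrogenases. Etfa, Etfb and Etfdh were at -0.06, -0.09 and 0.09. Etfb measured 13.85, 13.93 and 13.78 in KO and 13.96, 13.93 and 13.94 in WT, so that the groups were separate only beyond the second decimal (limma, adjusted p = 0.523). Etfbkmt, the methyltransferase that modifies lysines of the beta subunit ETFB, behaved otherwise. It measured 10.62, 10.51 and 10.27 on the KO arrays, against 9.50, 9.20 and 9.18 on the WT arrays. The lowest KO array lay well above the highest WT array. The difference was 1.18 with an interval of 0.85 to 1.50, or 2.26-fold in KO, and it missed the threshold (limma, adjusted p = 0.0655). A further probe set of Etfbkmt measured 8.39, 8.67 and 7.51 in KO, against 7.33, 6.87 and 7.14 in WT, a difference of 1.08 with groups that did not overlap (limma over every probe set, adjusted p = 0.275). On both probe sets KO 3 was the lowest KO array. Without KO 3 the difference of Etfbkmt was 1.27 and passed (limma, adjusted p = 0.0364), whereas leaving out any other array gave adjusted p values of 0.165 to 0.251 in limma.

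In the peroxisome, Decr2 stood out among 5 genes. Decr2 is the peroxisomal dienoyl-CoA reductase needed for polyunsaturated chains. It measured 12.20, 12.60 and 12.28 in KO, against 11.61, 11.78 and 11.60 in WT, so that every KO array was above every WT array. The difference of 0.69, or 1.62-fold, had an interval of 0.39 to 1.00 and did not pass (limma, adjusted p = 0.165). It kept a size of 0.57 to 0.77 with any single array left out. Eci2, a peroxisomal and mitochondrial enoyl-CoA isomerase, measured 13.12, 13.16 and 13.02 in KO and 13.01, 12.91 and 12.95 in WT, separate groups with a difference of 0.14 (limma, adjusted p = 0.385). Ehhadh, the bifunctional enzyme and a classical PPARα target, measured 13.24, 13.22 and 13.81 in KO and 14.01, 13.79 and 13.68 in WT. KO 1 and KO 2 lay below the WT arrays and KO 3 among them, so that the difference of -0.41 became -0.60 without KO 3, still short of the threshold (limma, adjusted p = 0.382 with all arrays and 0.107 without KO 3). Acaa1b, a peroxisomal thiolase, was at -0.13 and Hsd17b4, the multifunctional enzyme for branched chains, at -0.01.

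**Figure D2:**
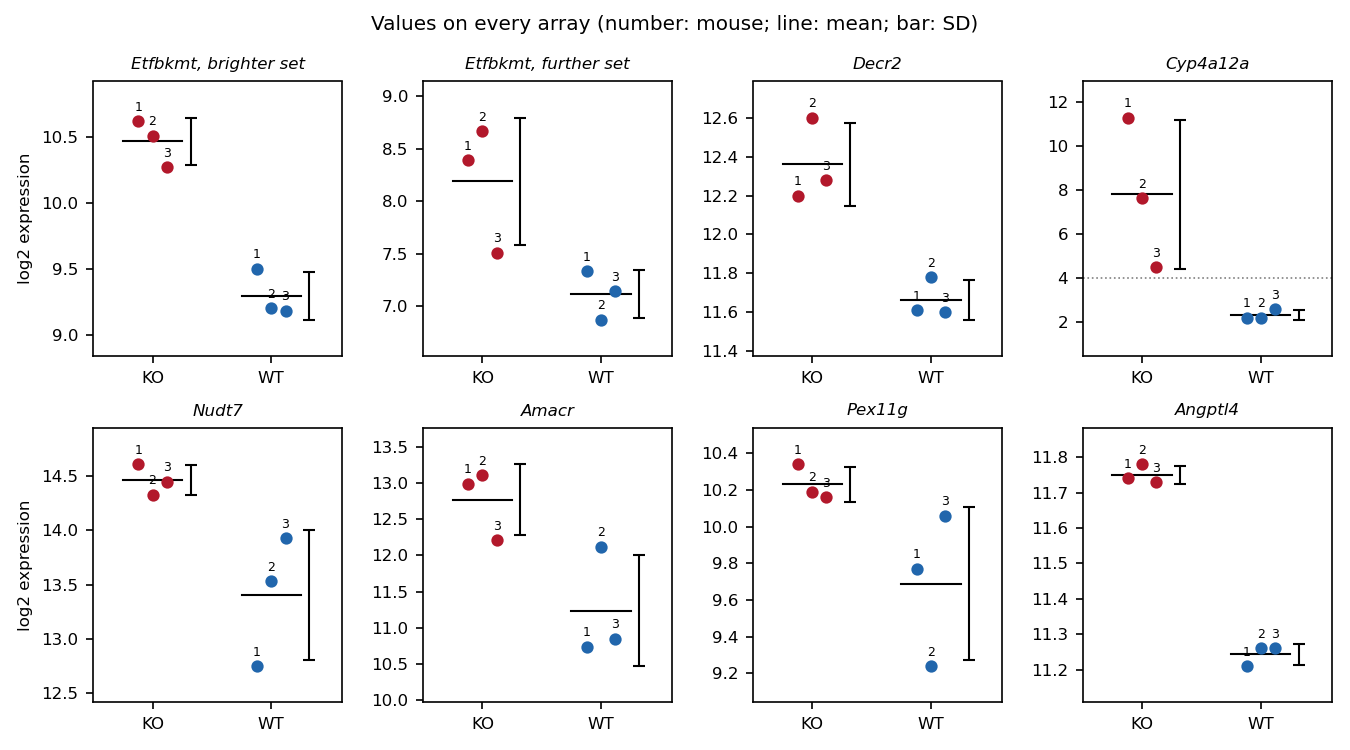
Log2 expression (y axis, scale differs by panel) on each KO (left, red) and WT (right, blue) array, numbered by mouse, with group means (lines) and SD (bars, n = 3), for Etfbkmt, Decr2, Cyp4a12a and 4 related genes. In each panel every KO array lies above every WT array, and the dotted line in the Cyp4a12a panel marks the level of 4. Only genes higher in KO are drawn, and related genes with separate groups that were lower, such as Acacb and Fads1, are not.

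Omega-oxidation was represented by Cyp4a14 and Cyp4a12a, fatty acid hydroxylases of the endoplasmic reticulum. Cyp4a14, among the most strongly PPARα-inducible genes of mouse liver, measured 14.26, 13.86 and 13.90 in KO and 14.08, 13.94 and 14.06 in WT, a difference of -0.02 with an interval of -0.33 to 0.29. Cyp4a12a, whose expression is male-biased in mice, measured 11.29, 7.63 and 4.47 in KO, against 2.18, 2.18 and 2.56 in WT. The KO arrays were far apart from each other while the WT arrays stayed at or near the lowest value of the table, 2.185. All mice are given as male, so such low WT values are unlike that bias. Their cause was not tested, and the difference cannot be read as a rise from a usual male level. Since all WT arrays lay below 4, the KO mean of 7.80 ± 3.41 (SD, n = 3) is given only as at least 13.9-fold higher. This bound rests on single arrays, since it was 4.14-fold without KO 1 and 44.0-fold without KO 3. The difference did not pass with all arrays (limma, adjusted p = 0.28) or without KO 3 (limma, adjusted p = 0.0723). The probe set may also detect the near-identical Cyp4a12b.

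Among the acyl-CoA thioesterases, which release free fatty acid and coenzyme A, the peroxisomal Acot3 and Acot4 varied widely within each group. Acot3 measured 9.81, 11.74 and 11.01 in KO and 12.47, 11.41 and 10.87 in WT. Its difference was -0.73 with an interval of -2.25 to 0.79 (limma, adjusted p = 0.585). It moved to -0.21 without KO 1, to -0.29 without WT 1 and to -1.17 without KO 2. Acot4 measured 8.45, 9.67 and 9.24 in KO and 9.65, 9.28 and 8.70 in WT. Thus KO 1 was the lowest array for Acot3 and for both probe sets of Acot4. The cytosolic Acot1 measured 9.61, 9.68 and 9.96 in KO and 9.28, 9.63 and 9.70 in WT, a difference of 0.21 with overlapping groups (limma, adjusted p = 0.529), which was 0.11 without KO 3 and 0.08 without WT 1. The mitochondrial Acot2 was at -0.09. Acot1 to Acot4 are paralogues of high similarity, so probes of one may also bind transcripts of another.

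The measured ketone body enzymes had small differences. Acat1, the mitochondrial thiolase that makes and cleaves acetoacetyl-CoA, measured 14.22, 14.26 and 14.25 in KO and 14.11, 14.18 and 14.19 in WT. The groups were separate, but the difference of 0.08 had an interval of -0.06 to 0.23 (limma, adjusted p = 0.521). Bdh1, which reduces acetoacetate to 3-hydroxybutyrate, measured 13.70, 13.89 and 13.71 in KO and 13.82, 13.72 and 13.73 in WT, a difference of 0.01 with an interval of -0.19 to 0.20. Further probe sets of these genes lay between 0.05 and 0.06.

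Ppara itself measured 13.21, 13.34 and 13.19 in KO and 13.37, 13.08 and 12.90 in WT, with a difference of 0.13 and an interval of -0.19 to 0.45 (limma, adjusted p = 0.65). Its further probe sets were at -0.16 and -0.04, so the sign depended on the probe set. Fabp1, the fatty acid-binding protein of hepatocytes with the direct repeat in its promoter, was at -0.03. Vnn1, a pantetheinase, measured 11.58, 11.94 and 10.77 in KO and 11.95, 11.63 and 11.50 in WT. KO 3 was lowest on both of its probe sets, and the difference of -0.26 became 0.07 without KO 3, -0.52 without KO 2 and -0.14 without WT 1. Pdk4, the kinase that shuts off pyruvate dehydrogenase when fatty acids are burned, measured 5.69, 5.70 and 6.42 in KO and 5.08, 10.19 and 4.74 in WT. Its difference of -0.73 turned to 1.03 when WT 2, the array with muscle transcripts, was left out, and was -1.53 without WT 1 and -1.70 without WT 3. Without WT 2 the 3 KO arrays lay above the 2 remaining WT arrays, and the difference did not pass (limma, adjusted p = 0.31).

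**Figure D3:**
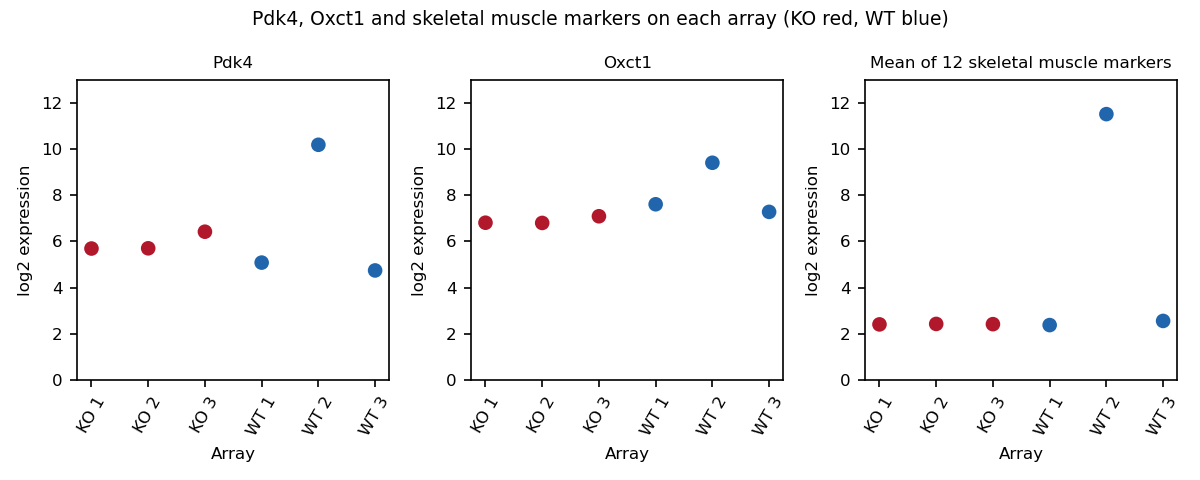
Log2 expression (y axis) of Pdk4, of the ketone-using enzyme Oxct1 and the mean of 12 skeletal muscle markers on each KO (left, red) and WT (right, blue) array (x axis). WT 2 is the highest array in every panel, at 10.19 for Pdk4, 9.41 for Oxct1 and 11.52 for the muscle markers.

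Leaving out an array can only keep or raise the number of separate groups, for these genes and for all genes. Without KO 3 there were 14 of 36, or 38.9%, against 37.4% of all genes, and 9 had an unadjusted p under 0.05, or 25.0%, against 18.2% of all genes. Among those 9, 7 were higher in KO, including Cpt1a, Cpt2 and Slc25a20, and 2, Ehhadh and Acaa1b, were lower. The split of all genes by direction was not computed without KO 3. For Cpt1a, Cpt2 and Slc25a20 the array left out, KO 3, was the KO array that lay below every WT array on the probe set used. Etfbkmt was the 1 gene called in limma without KO 3, where 1.4% of all genes were called. Without WT 2 the groups were separate for 13 of 36, or 36.1%, against 32.7% of all genes, and 4 had an unadjusted p under 0.05, against 12.7% of all genes. The shares of separate groups thus stayed close to those of all genes in these sets of arrays.

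**Figure D4:**
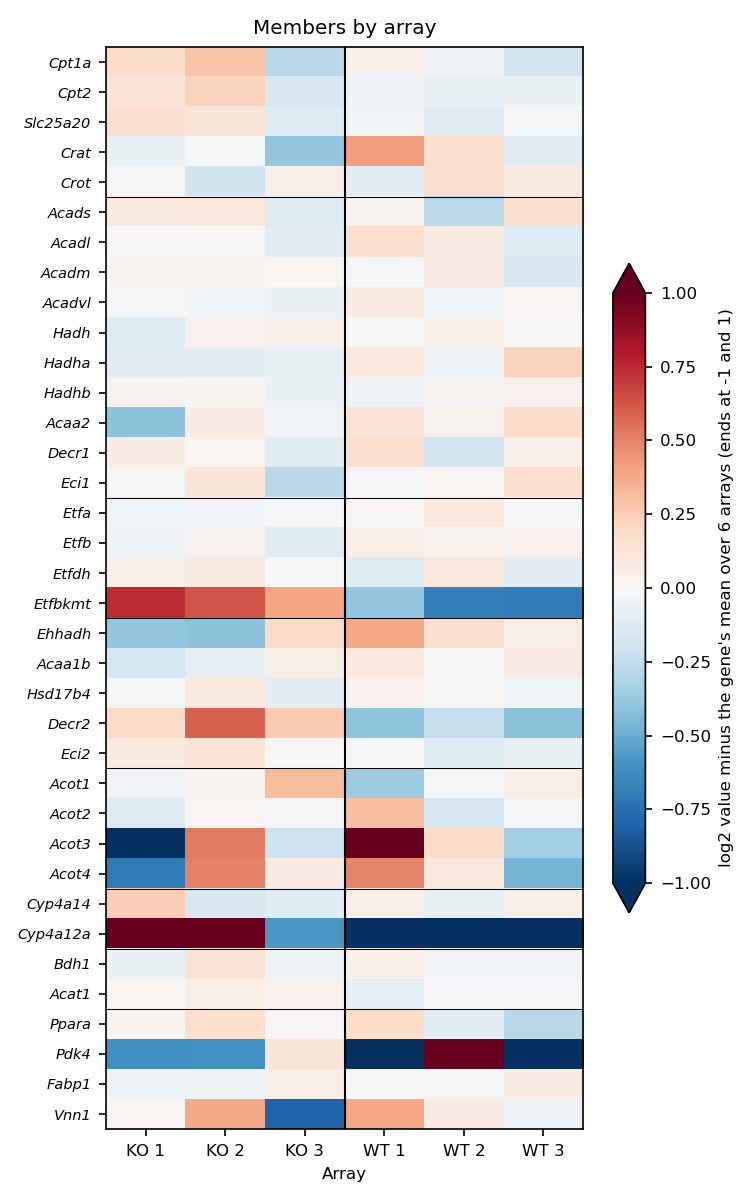
Log2 value of each gene on each array minus the gene's mean over the 6 arrays (colour, ending at -1 and 1), with KO arrays left and WT arrays right of the vertical line and roles separated by horizontal lines. Etfbkmt, Decr2 and Cyp4a12a are high in KO against WT, Acot3 and Acot4 are lowest on KO 1, and Pdk4 is highest on WT 2.

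Other genes of the same pathways were taken from a list of 106, of which 83 were tested. Of these 43 were higher, 40 lower and 0 called in limma, and their median was 0.03. At an unadjusted p under 0.05, 10 were higher, or 12% of them, against 4.32% of all genes, and 8 were lower, or 9.64%, against 10.1% of all genes. This list was also chosen with earlier results of these data known, so its shares are a description and not a test. Of 22 other peroxisomal genes 12 were higher and 10 lower. Amacr, the racemase that readies branched chains and bile acid intermediates for oxidation, measured 12.99, 13.11 and 12.21 in KO, against 10.74, 12.12 and 10.85 in WT. The difference was 1.53 with an interval of 0.44 to 2.63 (limma, adjusted p = 0.267), with KO 3 only just above WT 2. Pex11g, a factor of peroxisome division, was at 0.54 (limma, adjusted p = 0.342), and its further probe sets were at 0.51 and 0.58, all 3 with separate groups. The first of these was 0.31 without WT 2. Abcd3, a fatty acid transporter of the peroxisomal membrane, was at -0.22 and the thioesterase Acot12 at 0.22 (limma, adjusted p = 0.287 and 0.327).

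Of 14 other genes filed under mitochondrial oxidation, 8 were higher and 6 lower. Nudt7 is in fact a peroxisomal hydrolase of coenzyme A and its esters. It measured 14.61, 14.33 and 14.45 in KO, against 12.75, 13.53 and 13.93 in WT, a difference of 1.06 (limma, adjusted p = 0.265). Its other probe sets were at 1.22, 1.23 and 0.92, and on all 4 every KO array was above every WT array. Acsm3, a medium-chain acyl-CoA synthetase, was at 0.50 and Acad11, an acyl-CoA dehydrogenase, at 0.21. Acacb, which makes the malonyl-CoA that inhibits Cpt1a, was at -0.61 with separate groups (limma, adjusted p = 0.343), and at -0.39 without WT 3.

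Of 5 other ketone body genes 2 were higher and 3 lower. Oxct1, the enzyme of ketone use outside the liver, measured 6.81, 6.80 and 7.09 in KO and 7.61, 9.41 and 7.28 in WT. Its difference of -1.20 became -0.55 without WT 2 (limma, adjusted p = 0.381 with all arrays and 0.313 without WT 2). Bdh2, a cytosolic hydroxybutyrate dehydrogenase, was at 0.49. Aacs, which activates acetoacetate, was at 0.25 with all arrays, 0.01 without WT 2, -0.09 without KO 3 and 0.54 without WT 3. Slc16a7, a monocarboxylate transporter, was at -0.36, and at -0.17 without WT 1. Of 7 other Cyp4 genes 4 were higher and 3 lower, with differences between -0.20 and 0.23. Cyp4v3 was highest among them at 0.23, and its further probe set was at 0.24, both with separate groups (limma, adjusted p = 0.304 and 0.261). Cyp4f13 and Cyp4f15 were at 0.20 (0.13 without KO 3) and 0.10, and Cyp4f16 was at -0.20.

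Among 17 regulators 10 were higher and 7 lower, from -0.28 to 0.29. The coactivators Ep300 and Crebbp, both acetyltransferases, were at -0.28 and -0.26 with separate groups (limma, adjusted p = 0.317 and 0.336). Prkaa2, a catalytic subunit of AMP-activated kinase, was at 0.23, and Creb3l3, a hepatocyte factor that acts with PPARα, also at 0.23. Of 18 other PPARα targets 7 were higher and 11 lower, with a median of -0.01. Angptl4, an inhibitor of lipoprotein lipase, had narrow groups, at 11.74, 11.78 and 11.73 in KO against 11.21, 11.26 and 11.26 in WT. Its difference of 0.50 with an interval of 0.36 to 0.64 missed the threshold (limma, adjusted p = 0.0655), and was 0.27 when averaged with a second probe set that lay near the lowest value on every array. Fads1, a desaturase, was at -0.44, and the synthetases Acsl4 and Acsl5 were at 0.27 and -0.29. None of these targets was called, and Fgf21, the hepatokine induced by fasting, lay at 2.62 on all 6 arrays.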

How the data were processed

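Whole-liver RNA of 3 KO and 3 WT mice was measured on 6 arrays. The authors deposited log2 expression levels per probe set, for which the submitters' processing notes name GCRMA 2.16.0 and R 2.9.1. GCRMA removes background by probe sequence, normalises between arrays and summarises probes. The log2 scale was read from the values, which ran from 2.185 to 16.327, with 28.9% at the lowest value, where differences carry little information. Further settings and detection calls are not given in the sources used here, and the number of arrays limits the precision.

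From 45101 probe sets, 34945 with 1 gene symbol gave 18193 genes. Genes with a value of at least 4 on at least 3 arrays were tested, which left 10009. KO was compared with WT across all genes in limma 3.58.1 under R 4.3.3 (lmFit, eBayes, two-sided, no covariates), with Benjamini-Hochberg adjustment over all genes and a threshold of 0.05. In simulated KO and WT arrays of 10009 genes the test recovered 34% of 50 genes changed 1.5-fold. It recovered 66%, 92% and 98% of sets of 50 changed 2-fold, 4-fold and 8-fold, with 9 false calls. All sets were changed at once, with independent normal noise at each gene's own spread. Outlying arrays, muscle RNA and RNA quality were not simulated, so these shares may overstate recovery in the real arrays. Where all WT arrays lay below 4, the fold is a bound against 4. The members and lists were chosen with earlier results of these data known. By rule, values on every array are given for genes with separate groups or a difference of at least 0.5 in size, for Ppara, Cpt1a, Acat1 and Bdh1, and for up to 2 genes per role with the smallest p. Of the other pathway genes, up to 4 per list with the smallest p are named. Slc25a20, Acadm, Acot4, Fgf21 and the genes given by a difference alone were added after their values were seen. Alternatives covered filter, normalisation, probe sets, variance model, array weights, a replicate block and arrays left out.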

Additional observations from a re-analysis of the deposited data

How the results depend on the processing

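The count of 0 called oxidation genes held with no filter, a filter at 6, values floored at 4, probe sets averaged per gene, an intensity trend, array weights, the replicate block, every probe set tested (added after the data were seen) and both KO 3 and WT 2 omitted. It was 1 with quantile normalisation and 1 with median centring, which was Etfbkmt both times (limma, adjusted p = 0.0418 and 0.0353), and 0 to 1 with each array left out. The median difference was 0.044 with median centring and -0.042 to 0.029 with each array left out. Separate groups numbered 8 to 14 with each array left out and 19 without both KO 3 and WT 2. The share of all genes also rose, from 20.5% with all arrays to 37.4% without KO 3 and 32.7% without WT 2. It was not computed for the other sets of arrays, so the 19 cannot be read as a result about these genes. The 17 genes called in all became 3 with no filter, 10 with the filter at 6, 3 without KO 3 and WT 2, and 1 to 140 with each array left out. The values gave no sign that the replicate numbers pair the mice. Same-numbered deviations correlated at -0.086, -0.079 and -0.141, no KO array correlated best with its own number, and with the replicate block 0 genes were called. With so few arrays this cannot show that pairing is absent. Lamtor2 stayed at -1.19 with the replicate block (limma, adjusted p = 0.116), -1.20 without KO 3 and WT 2 (0.114 by limma) and -1.23 to -1.17 with each array left out, where it lost the call without KO 2, WT 1, WT 2 or WT 3 (limma, adjusted p = 0.0505 to 0.114). Angptl4 passed with an intensity trend and without KO 3 (limma, adjusted p = 0.0399 and 0.0485). With probe sets averaged per gene Lamtor2 was at -0.72 (limma, adjusted p = 0.0282). Over these alternatives, Etfbkmt lay between 1.10 and 1.28, Decr2 between 0.57 and 0.80, and Ppara between -0.02 and 0.25. The cause of these shifts was not tested.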

Other observations

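Further probe sets of related genes held values that the probe set used for the gene did not show, all chosen after their values were seen. For Scp2, the peroxisomal thiolase and sterol carrier, the brightest probe set was at 0.09, while another measured 9.49, 8.97 and 9.19 in KO against 8.29, 8.40 and 8.63 in WT, a difference of 0.78 (limma over every probe set, adjusted p = 0.207). For Ppargc1a, the coactivator PGC-1α, the brightest was at -0.09, and the others were at 0.05, 0.15, -0.41 and -0.53, the last with separate groups (limma over every probe set, adjusted p = 0.275). For Rxra, the partner of PPARα, a second probe set was at 0.31 with separate groups, against -0.04 for the brightest. Cd36, a fatty acid transporter that macrophages and endothelial cells also express, was lower on all 3 probe sets past the filter, at -0.49, -0.56 and -0.84, while the macrophage markers had a median difference of -0.96 between the same groups. WT 2, the array with muscle transcripts, was the highest array on all 3 probe sets, at 10.83, 10.23 and 7.85. WT 1 lay a little lower, at 10.71, 10.19 and 7.62. The part of macrophages, endothelial cells and muscle RNA in Cd36 was not tested. Of the 20 further probe sets of the oxidation genes past the filter, 12 had the sign of the one used and 0 were called in limma.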
